A study of Mus musculus with 36 samples.

Results

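The ribosomes of the pellet and those of fraction 5/6 were compared in wild-type (WT) mouse brain after the standard nuclease treatment, through the sequences of the mRNA fragments that ribosomes shield from nuclease, the ribosome-protected fragments (RPFs or footprints). The comparison rests on 6 of the 36 samples of the study, 3 footprint libraries of the pellet and 3 of fraction 5/6, taken by their labels. All came from C57BL/6 mice at postnatal day 5 with no treatment labelled other than the nuclease protocol, and each preparation pooled the whole brains of 10 pups, so a library is a pool of animals and of all brain cell types. In the FMR1 KO libraries, used below only to read the same genes in other samples, the mice lacked Fmr1 in every cell. Brain homogenate was spun through a sucrose gradient, and the ribosome clusters heavy enough to reach the bottom formed the pellet, while fractions 5 and 6 held heavy polysomes that stayed in the gradient. In the standard treatment the buffer held 10 mM MgCl2, RNase I was scaled to the ribosome content and digestion was at room temperature. In the low nuclease treatment the buffer held 2.5 mM MgCl2, RNase I was a fixed amount and digestion was in the cold. The single ribosomes left after digestion were then taken from a further sucrose gradient, whereas in the standard treatment they were pelleted. The labels name the libraries replicates and do not tie them to separate animals beyond this pooling, so p-values measure the spread between these libraries. By the protocol of the study, the 3 replicates of a condition carried different linkers and were pooled before reverse transcription and PCR. A difference between fractions and one between these library pools therefore cannot be told apart.

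Neurons ship part of their mRNA along axons and dendrites in RNA granules, dense particles that hold mRNA, RNA-binding proteins and ribosomes. Ribosomes in these granules are thought to have begun translation and then stalled, so that a protein can be finished near a synapse when a signal arrives. A ribosome cluster sediments faster the more ribosomes sit on its mRNA, and an mRNA with a long open reading frame has room for more of them. The fragile X protein FMRP, encoded by Fmr1, binds many neuronal mRNAs and is found with such ribosomes. Footprints report where ribosomes sat and not how many mRNA molecules there were, and the RNA libraries of the study are labelled as brain RNA with no fraction and were not used here, so more mRNA and more ribosomes per mRNA cannot be told apart. In these bulk libraries fewer cells of a type and fewer footprints per cell cannot be told apart either.

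The 6 libraries held 21594932 to 40174168 counts, of which the single gene Cdk8, left out by rule, took 43.7% to 59.2%. What remained was 8808890 to 21274803 counts per library, and levels are given as CPM, counts scaled to library size after TMM normalisation and not to gene length. One library went against its label. Fmr1, present in any WT brain, had 1443, 821 and 770 counts in the pellet and 1663 and 604 in fraction 5/6 replicates 1 and 2, but 39 in the library labelled fraction 5/6 replicate 3. Normalised over the 12 standard nuclease footprint libraries, Fmr1 stood at 2.98 CPM there, against 62.0 to 96.1 CPM in the other 5 WT libraries and 4.41 to 6.95 CPM in the 6 FMR1 KO libraries. Wdfy1, an endosomal adaptor gene, was likewise at 1.61 CPM there, against 26.1 to 30.9 CPM in the other WT and 2.06 to 3.48 CPM in the FMR1 KO libraries. Across all genes, this library was closest to FMR1 KO pellet replicate 3 (Euclidean distance of log2 CPM 79.4, Spearman's rho 0.973 across genes). It was 90.9 to 94.6 from the 3 WT pellets, and 124 and 132 from the other 2 WT libraries of fraction 5/6. The rule of this comparison named that library for its Fmr1 counts and its likeness to the pellets, so both are descriptions here. Gene counts are given with all 6 libraries and with the 5 that remain without the library labelled fraction 5/6 replicate 3. Leaving out a fraction 5/6 library that lies near the pellets widens the difference between the fractions by construction. All calls with 5 libraries carry this limit. Fold changes, tests and list counts of single genes and lists are those with 5 libraries, and "with 6" after a value gives the log2 fold change or median with all of them.

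With all 6 libraries, almost no gene could be separated between the pellet and fraction 5/6. Of 13122 genes tested by edgeR's quasi-likelihood test, 2 were higher in the pellet (0.0152%), Sall4 and Zc3h3, and 1 was lower (0.00762%), Hmx2, at a Benjamini-Hochberg adjusted p under 0.05. At an unadjusted p under 0.05 there were 820 genes (6.25%), and DESeq2 called 10 higher and 80 lower. Without the library labelled fraction 5/6 replicate 3, 1024 of 13344 genes were higher in the pellet (7.67%) and 234 were lower (1.75%), and 3706 passed an unadjusted p under 0.05 (27.8%). Scaling by library size alone gave 548 higher and 270 lower, a less one-sided split. The 3 pellet libraries lay wholly above the 2 of fraction 5/6 in 3594 genes (26.9%) and wholly below in 2938 (22%), where with all 6 libraries they lay above in 822 (6.26%) and below in 774 (5.9%).

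The library labelled fraction 5/6 replicate 3 lay on the side of the pellets. In the 1024 genes that rose, it was above both other fraction 5/6 libraries in 1021 (99.7%), against 41.4% of all genes, and its median level was 1.06 above their mean on the log2 scale, where the pellets were 1.08 above. In the 234 genes that fell, it was below both in 227 (97.0%), against 38.8% of all genes, with a median of -0.86 beside -0.97 in the pellets. The fraction 5/6 replicates 1 and 2 chose these genes, so these shares are a description. With all 6 libraries 1019 of the 1024 kept their direction, and their median log2 fold change went from 1.10 to 0.62. All 220 of the falls that could be tested kept theirs, with a median of -0.63 in place of -0.85. Of both sets only Sall4, Zc3h3 and Hmx2 passed with 6 libraries, so each rise or fall of another gene below is a call from 5. In none of the 41 gene lists described below did a member pass with 6, and their medians had the same sign as with 5 but were nearer 0, except for endothelial markers. Genes chosen in other libraries were read as well, the 1341 genes tested here that were called higher in the pellet of FMR1 KO mice. Their median level relative to the mean of the 6 libraries was 0.31, 0.18 and 0.55 (log2) in the WT pellets and -0.78 and -0.66 in fraction 5/6, with 0.39 in the library labelled fraction 5/6 replicate 3. By these levels too this library lay among the pellets, the likeness for which the rule named it. FMR1 KO pellet replicate 3, the library closest to it, helped to choose these genes, so its level in them is a description and not a separate check. The pellet minus fraction 5/6 difference was 0.70 with all 6 libraries (two-sided exact permutation test, p = 0.3, where 0.1 is the smallest p possible) and 1.07 with 5.

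**Figure D1:**
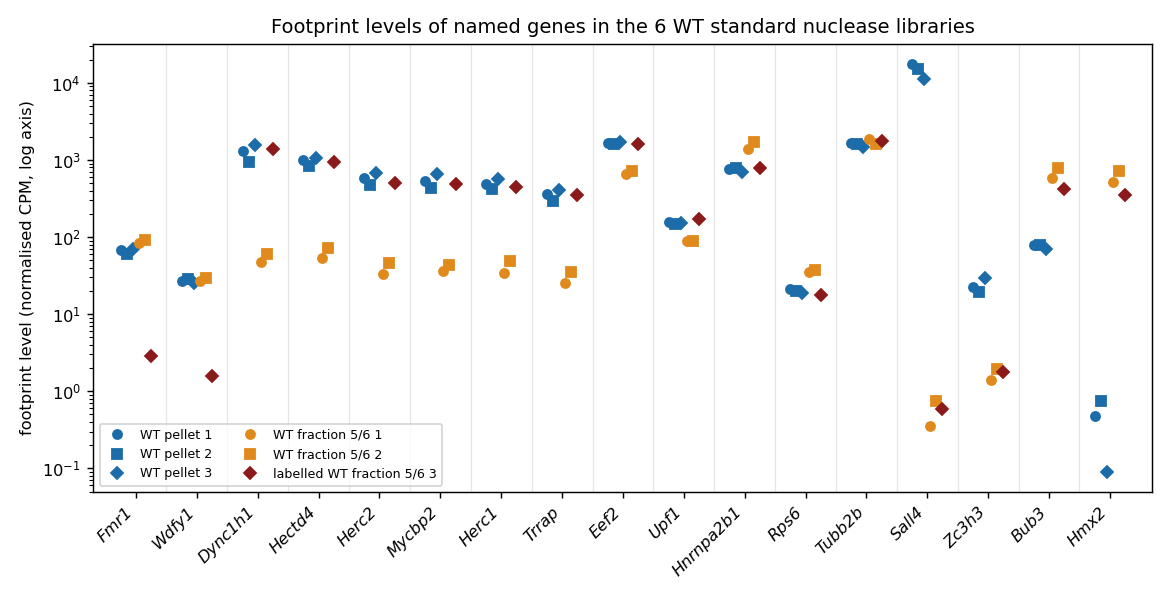
Footprint level of 17 genes in each of the 6 WT libraries, in normalised CPM on a log axis, with one point per library. From Dync1h1 to Trrap the dark red points of the library labelled fraction 5/6 replicate 3 sit with the blue pellet points and not with the 2 orange points of fraction 5/6, and in Fmr1 and Wdfy1 they sit far below all others, at 2.90 and 1.56 CPM.

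Genes of very long proteins led the rises in the pellet. After Sall4, described further below, the largest rise among genes of at least 5 CPM was that of Dync1h1, the heavy chain of cytoplasmic dynein, the motor that carries cargo back along axons (ENSMUSG00000018707, chr12:110601452-110666945, plus strand, GRCm38, coding length 13932 nt). It had 1295, 932 and 1568 CPM in the 3 pellets and 48.2 and 61.1 CPM in fraction 5/6 replicates 1 and 2, and 1382 CPM in the library labelled fraction 5/6 replicate 3. The first 5 libraries do not overlap, and the sixth lay inside the range of the pellets. Non-overlap of these 5 libraries was a condition for naming the largest rises and falls, so it is a description. The log2 fold change was 4.54 ± 0.33 (SE, adjusted p = 0.00639) with 5 libraries and 1.35 (adjusted p = 0.702) with 6. Hectd4, a HECT-type ubiquitin ligase (ENSMUSG00000042744, chr5:121220219-121368577, plus strand, 13254 nt), had 996, 843 and 1059 CPM in the pellets and 53.1 and 71.5 CPM in fraction 5/6, with 945 CPM in the omitted library. Its log2 fold change was 3.96 ± 0.23 (SE, adjusted p = 0.00639, 1.44 with 6), and the omitted library again lay inside the range of the pellets. Herc2, a ubiquitin ligase of the DNA damage response (ENSMUSG00000030451, chr7:56050196-56231800, plus strand, 14508 nt), stood at 577, 471 and 682 CPM against 33.0 and 46.6 CPM, with 507 CPM in the omitted library. It rose by 3.86 ± 0.27 (SE, adjusted p = 0.00639, 1.56 with 6).

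Of the 12 largest rises among genes of at least 5 CPM, 8 encode proteins of this kind. Besides the 3 above they were the ribosome assembly ATPase Mdn1 (3.79 ± 0.26), the axonal ubiquitin ligase Mycbp2 (3.79 ± 0.26), Herc1 (3.57 ± 0.24), the acetyltransferase scaffold Trrap (3.56 ± 0.24) and the DNA-dependent protein kinase Prkdc (3.52 ± 0.26), all on the log2 scale with SE. Their coding lengths ran from 11577 nt (Trrap) to 16746 nt (Mdn1). All 8 kept the call whichever of the 5 libraries, or replicate number 1 or 2 of both fractions, was left out, and with all 6 libraries none of the 8 passed, at log2 fold changes of 1.27 (Mdn1) to 1.62 (Prkdc). In FMR1 KO mice the same genes differed by 3.37 (Herc1) to 4.56 (Dync1h1), and in the WT low nuclease libraries by 2.21 (Mdn1) to 3.09 (Hectd4), past the threshold in each. For Dync1h1 the FMR1 KO levels were 1714, 1097 and 1569.8 CPM in the pellet and 77.9, 58.9 and 48.7 CPM in fraction 5/6. Read with low nuclease, Dync1h1 stood at 685, 717 and 681 CPM in the pellet and 86.4, 96.3 and 96.9 CPM in fraction 5/6. In neither set did a library of fraction 5/6 come above 96.9 CPM, and in both the 2 fractions did not overlap.

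Coding length ordered the fold changes over all genes. With 5 libraries, the median log2 fold change was -0.30 for 1717 genes under 600 nt, -0.15 from 600 to under 1200 nt, 0.04 from 1200 to under 2400 nt, 0.45 from 2400 to under 4800 nt and 1.21 for the 659 genes of 4800 nt and more. Each step between neighbouring length groups went the same way. With 6 libraries the medians were -0.18, -0.10, 0.02, 0.27 and 0.65, and they rose in the same order. Spearman's rho of fold change with coding length was 0.46 across 13181 genes with 5 libraries and 0.42 across 12963 with 6. These are correlations across genes of the same libraries, which share depth and normalisation, and carry no p. Of the genes of 4800 nt and more, 332 rose (50.4%) and 6 fell, while of those under 600 nt, 6 rose (0.349%) and 39 fell (2.27%). The genes that rose had a median coding length of 3672 nt and those that fell 1110 nt, against 1419 nt for all genes. At least 2400 nt were coded by 810 of the genes that rose (80.4%), 22 of those that fell (9.44%) and 22.6% of all genes.

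**Figure D2:**
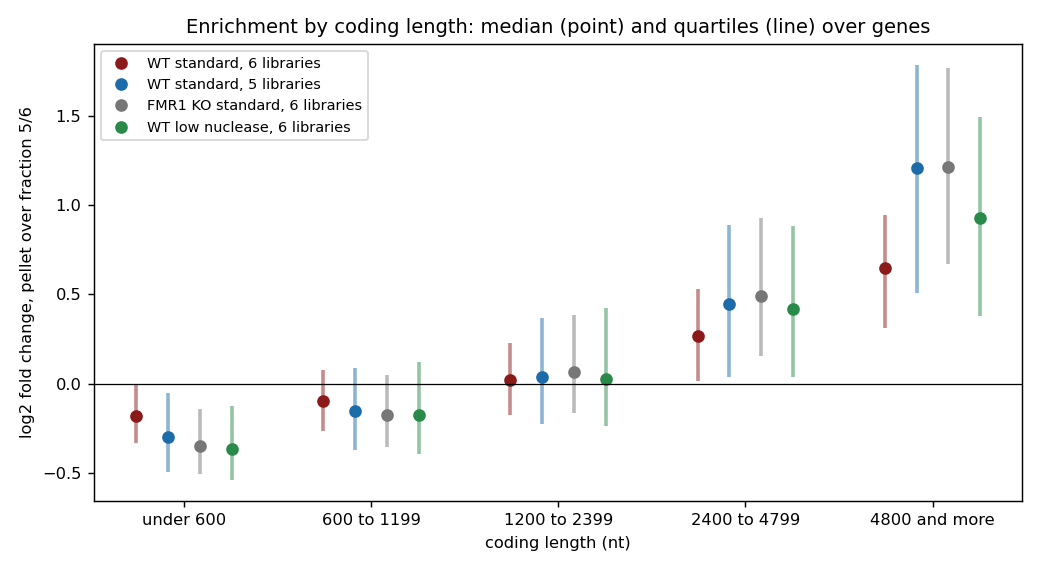
Median log2 fold change of pellet over fraction 5/6 (points) with the quartiles of genes (lines), by coding length in nt, for WT with 6 and 5 libraries, FMR1 KO and WT low nuclease. Medians climb with length in all 4 sets, from -0.30 to 1.21 in WT with 5 libraries, and the 6-library medians lie closer to 0 in the longest group (0.65).

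As a share of all counts without Cdk8, coding sequences of 4800 nt and more took 11.7%, 8.99% and 15.2% in the pellets and 5.97% and 6.20% in fraction 5/6, with 9.38% in the library labelled fraction 5/6 replicate 3. Every pellet but replicate 2 was above all libraries of fraction 5/6. The means were 12% ± 3.13 (SD, n = 3) in the pellet and 7.19% ± 1.91 (SD, n = 3) in fraction 5/6 with all 6 libraries (two-sided exact permutation test, p = 0.2). With 5 libraries the fraction 5/6 mean was 6.09% ± 0.159 (SD, n = 2, exact permutation p = 0.2, the smallest that 3 against 2 allows here). Coding sequences under 600 nt took 5.24%, 5.29% and 3.86% in the pellets and 8.80% and 8.34% in fraction 5/6, with 5.31% in the omitted library. The exact permutation p was 0.1 with all 6 libraries, the smallest possible, so these shares separate the fractions but cannot pass a threshold of 0.05.

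Length was not the whole order. Among the 659 genes of 4800 nt and more, 87 had a fold change below 0 (13.2%), of which 6 passed the test. The highest-covered of the 6 was Fryl, a homologue of a fly protein that shapes cell processes (log2 fold change -2.24 ± 0.28 SE, adjusted p = 0.0135, -1.83 with 6, coding length 9021 nt). Among the 1717 genes under 600 nt, 368 were above 0 (21.4%), of which 6 passed. These 6 included Manf, a secreted ER stress protein (0.73 ± 0.12 SE, adjusted p = 0.0283, 0.50 with 6). Spearman's rho of the fold change with the mean level of a gene was 0.05 across 13344 genes, and with the percent of acidic residues in the protein -0.09 across 13089, both far smaller than with coding length.

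Giant ubiquitin ligases, VPS13 lipid transfer proteins and BEACH-domain proteins formed the list with the highest median. Of it, 19 of the 23 measured rose and 0 fell with 5 libraries (82.6% against 7.67% of all genes), with a median log2 fold change of 2.45 beside -0.01 for all genes. With 6 libraries the median was 1.27 and 0 passed. Relative to the median of genes of the same length group, the list was 1.24 higher with 5 libraries. The longest group has no upper bound and the list had a median coding length of 11244 nt, so length within that group is not held fixed. The same groups stand behind "genes of the same length" and "length-centred" below. The summed level of the list was 9873, 6462 and 8027 CPM in the pellets and 2808 and 2006 CPM in fraction 5/6, with 7282 CPM in the omitted library. The 3 members with the highest level were Ubr4, Hectd4 and Nbea. Ubr4, a ligase of the N-degron pathway, had 3638, 1107 and 750.0 CPM in the pellets and 1977 and 894 CPM in fraction 5/6, overlapping between the fractions (0.35 ± 0.79 SE, adjusted p = 0.806, 0.32 with 6). Nbea, which directs receptors to synapses, had 803, 708 and 958 CPM against 129 and 167 CPM, with 688 CPM in the omitted library, and rose by 2.48 ± 0.22 (SE, adjusted p = 0.00786, 1.33 with 6). The lipid transfer protein Vps13d rose by 3.19 ± 0.19 (1.43 with 6) and the lysosomal BEACH protein Lyst by 2.40 ± 0.25 (1.27 with 6). Members of a list beyond its 3 highest are named here and below after their values were seen.

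Motor proteins, which move cargo and shape actin, also had many calls: 20 of the 38 measured rose and 0 fell (52.6% against 7.67% of all genes), and 0 passed with 6. The median was 0.88 (0.47 with 6), and with 5 libraries it was 0.39 above genes of the same length. The axonal kinesins Kif5a and Kif1a had 1253, 1113 and 1441 and 1099, 1114 and 1331 CPM in the pellets. In fraction 5/6 Kif5a had 189 and 255 CPM and Kif1a 289 and 378 CPM, and they rose by 2.52 ± 0.23 (1.17 with 6) and 1.83 ± 0.21 (0.91 with 6). Both also passed in FMR1 KO (2.37 and 1.62) and with low nuclease (1.59 and 1.44). Kif5b, the ubiquitous relative of Kif5a, rose less, at 267, 248 and 295 CPM and 167 and 184 CPM (0.62 ± 0.13 SE, adjusted p = 0.0452, 0.49 with 6). Among myosins, Myo5a, which carries cargo into spines, rose by 2.8 ± 0.25 (1.44 with 6) and the non-muscle myosin Myh10 by 2.93 ± 0.24 (1.22 with 6). The highest member, the kinesin Kif13a, was at 2599.7, 3415 and 64465 CPM in the pellets and 4196 and 7214 CPM in fraction 5/6, so that 1 pellet library carried its mean, and it did not pass (2.04 ± 1.65 SE, adjusted p = 0.466, 2.62 with 6).

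Chromatin remodellers and modifiers, many of them genes of neurodevelopmental disorders, had calls in many members, 33 of the 53 measured rose and 0 fell (62.3% against 7.67% of all genes), and 0 passed with 6. The list had a median of 1.04 (0.56 with 6) and a length-centred median of -0.11. The maintenance DNA methyltransferase Dnmt1 and the remodeller Chd5, 2 of the 3 highest members, did not pass. Chd5 was at 245, 216 and 2148 CPM in the pellets and 139 and 162 CPM in fraction 5/6, with 2795 CPM in the omitted library, so that replicate 3 of both fractions was far above the rest. Atrx, a histone chaperone partner, had 562, 468 and 662 CPM against 121 and 159.9 CPM and rose by 2.01 ± 0.23 (SE, adjusted p = 0.0108, 1.06 with 6). The histone methyltransferase Ash1l (2.47 ± 0.23, 1.27 with 6) and the autism-linked helicase Chd8 (1.71 ± 0.17, 0.94 with 6) rose too. Spectrins, ankyrins and spectraplakins, the membrane skeleton, had a similar median: 7 of the 15 measured rose and 0 fell, with a median of 1.12 (0.70 with 6) and a length-centred median of -0.09. Sptan1, the alpha spectrin of brain, had 1433, 1138 and 1795 CPM against 283 and 352 CPM (2.2 ± 0.27 SE, adjusted p = 0.0129, 1.09 with 6), whereas Plec and Syne2 had 1 fraction 5/6 library far from the other, at 11.8 and 8208 CPM and 2972 and 26.9 CPM, and did not pass.

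**Figure D3:**
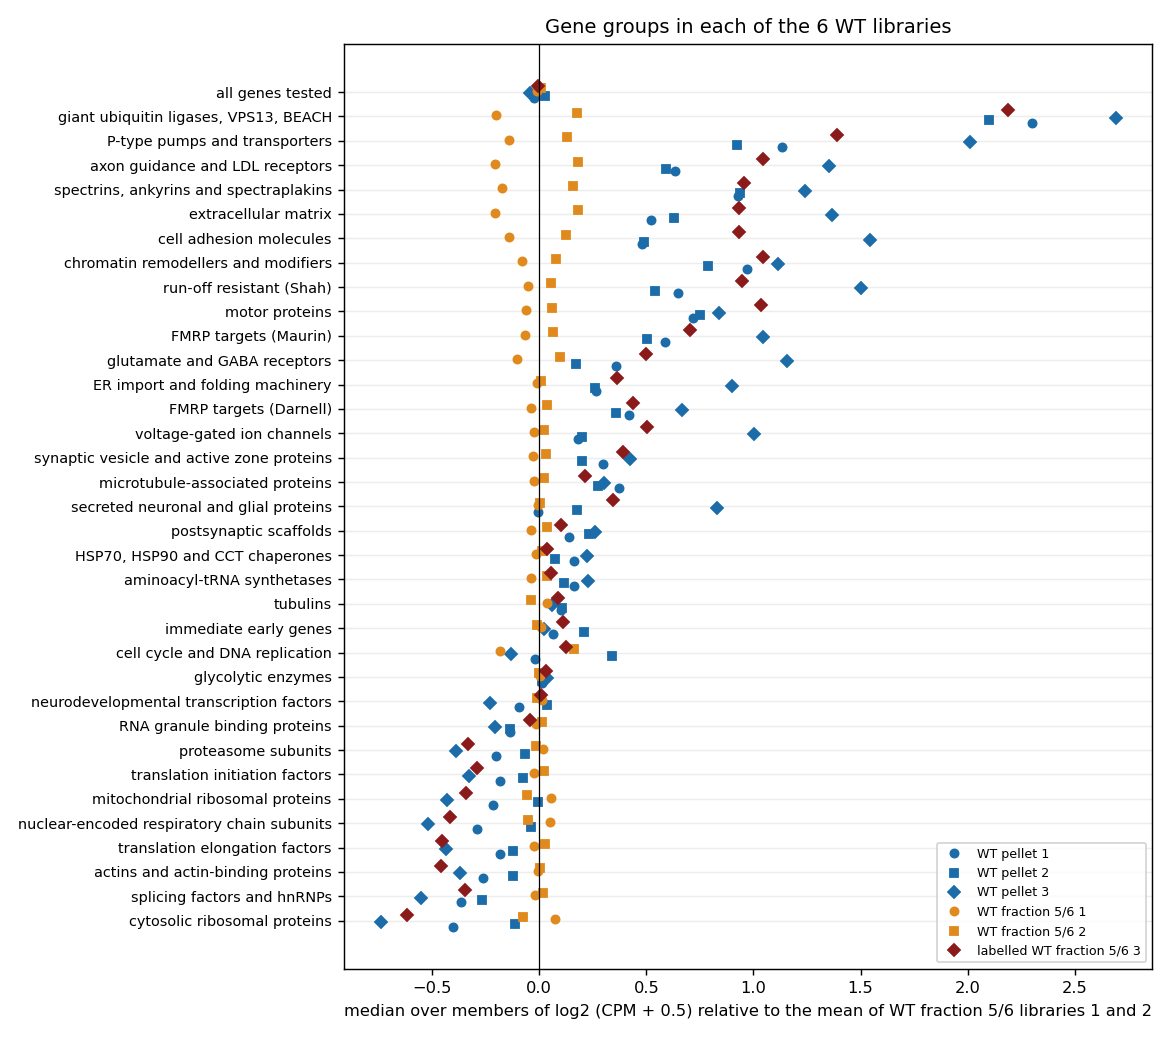
For each gene list, the median over members of log2 (CPM + 0.5) relative to the mean of WT fraction 5/6 replicates 1 and 2, with one point per library. The dark red points of the library labelled fraction 5/6 replicate 3 lie among the blue pellet points and apart from the orange ones in the lists at the top and bottom, as for giant ubiquitin ligases (2.19 beside 2.1 to 2.69) and cytosolic ribosomal proteins (-0.62 beside -0.11 to -0.74).

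mRNAs of membrane and secreted proteins, which are translated at the endoplasmic reticulum, were mostly above 0, and their shares of calls differed from list to list. With 5 libraries, where 7.67% of all genes rose, 23.3% of extracellular matrix genes, 14.3% of pumps and transporters, 13.9% of guidance receptors and 9.43% of adhesion molecules rose, and 0 with 6. Pumps and transporters, a list that also holds calcium release channels, had the highest median of these lists. All 28 were above 0 with 5 and with 6 libraries, with medians of 1.64 and 0.83, and the 5-library median was 1.18 above genes of the same length. Of these, 4 of the 28 measured rose and 0 fell, the risers including the calcium release channels Ryr2 (1.79 ± 0.32, 1.08 with 6) and Ryr3 (2.1 ± 0.19, 0.94 with 6) and the glutamate transporter Slc1a3. Of the same list, 18 of 28 were higher in the FMR1 KO pellet, where 10.1% of all genes were, and 25 of 28 with low nuclease, where 14.3% were.

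Cell adhesion molecules had a median of 1.09 (0.62 with 6), which was 0.70 relative to genes of the same length with 5 libraries, and 5 of the 53 measured rose and 0 fell. L1cam, an adhesion molecule of growing axons, had 67.5, 55.2 and 169 CPM in the pellets and 9.95 and 12.2 CPM in fraction 5/6, with 89.0 CPM in the omitted library, and rose by 3.14 ± 0.59 (SE, adjusted p = 0.038, 1.39 with 6). Ncam1, another such molecule, rose too, at 174, 145 and 371 CPM against 41.4 and 50.2 CPM (2.33 ± 0.47 SE, adjusted p = 0.046, 1.04 with 6). The highest member, the protocadherin Pcdh17, spread from 128 and 465 CPM in fraction 5/6 to 1935, 988 and 585 CPM in the pellets and did not pass (1.99 ± 0.78 SE, adjusted p = 0.177, 1.49 with 6). Axon guidance and low-density lipoprotein receptors had a median of 1.2 (0.57 with 6), and 5 of the 36 measured rose and 1 fell. Lrp1, an endocytic receptor, had 82.7, 67.6 and 144 CPM against 7.87 and 11.7 CPM (3.33 ± 0.43 SE, adjusted p = 0.0139, 1.34 with 6), and Ephb1, an ephrin receptor, fell, at 15.5, 6.33 and 9.56 CPM against 37.1 and 88.8 CPM (-2.57 ± 0.51 SE, adjusted p = 0.0429, -2.31 with 6). For Ephb1 the log2 fold change was 0.28 in FMR1 KO (adjusted p = 0.808) and 0.73 with low nuclease (adjusted p = 0.0358).

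Extracellular matrix mRNAs had a median of 1.11 (0.54 with 6), which was 0.57 relative to genes of the same length with 5 libraries, and 10 of the 43 measured rose and 1 fell. Nid1, the nidogen that links basement membranes, stood at 8.60, 13.8 and 17.7 CPM in the pellets and 1.37 and 3.16 CPM in fraction 5/6 and rose by 2.67 ± 0.51 (SE, adjusted p = 0.0389, 0.83 with 6). Reln, the layering signal of the cortex, had 46.0, 43.3 and 105 CPM against 10.5 and 12.8 CPM (2.49 ± 0.48 SE, adjusted p = 0.041, 1.34 with 6). Hapln4, a link protein of perineuronal nets, fell, at 53.0, 34.8 and 55.8 CPM against 219 and 1033 CPM (-3.70 ± 0.67 SE, adjusted p = 0.0334, -3.42 with 6). Fbn1, a microfibril protein, changed sign with the omitted library. It had 20.1, 17.2 and 16.7 CPM in the pellets and 0.913 and 2.86 CPM in fraction 5/6 but 321 CPM in the omitted library, and its log2 fold change was 3.43 ± 0.48 with 5 libraries and -2.59 with 6.

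The receptor and channel lists had no call in WT with standard nuclease, where 7.67% of all genes rose and 1.75% fell. It was 0 of 29 glutamate and GABA receptors and 0 of 27 voltage-gated channels, with medians of 0.63 (0.39 with 6) and 0.52 (0.44 with 6). In the FMR1 KO libraries 10 of 29 receptors and 5 of 27 channels were higher in the pellet (34.5% and 18.5%, against 10.1% of all genes). In the WT low nuclease libraries 17 of 29 receptors and 8 of 27 channels were higher in the pellet (58.6% and 29.6%, against 14.3% of all genes). Whether these sets differ from each other was not tested. Secreted proteins had a median of 0.34 (0.24 with 6), and 0 of the 40 measured rose and 0 fell. Apoe, the lipid carrier of astrocytes, was at 124, 143 and 188 CPM and 95.6 and 110.0 CPM (0.56 ± 0.21 SE, adjusted p = 0.157, 0.28 with 6). Machinery of ER import and folding had a median of 0.56 (0.37 with 6), and 2 of the 35 measured rose and 1 fell. Canx and Calr, the lectin chaperones, had 47.0, 41.8 and 103 CPM and 44.1, 41.8 and 100.2 CPM in the pellets against 27.8 and 30.7 CPM and 28.0 and 28.4 CPM and did not pass (adjusted p = 0.177 and 0.174). In all of these lists pellet replicate 3 was the highest pellet: the median member of the adhesion list was 0.48, 0.49 and 1.55 above fraction 5/6 (log2) in the 3 pellets, and that of the pumps 1.13, 0.92 and 2.01.

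An N-terminal hydrophobic stretch, as in a signal peptide or first membrane span, was read from the protein sequence of each gene as a 15-residue window with a mean Kyte-Doolittle value of at least 2 within the first 40 residues. Genes with such a stretch had the higher median in each length group but the longest. In the group from 1200 to under 2400 nt it was 0.37 against 0.02, and in that of 4800 nt and more 1.11 against 1.21. The share called higher was 2.54% of genes with such a stretch (34 of 1336) and 8.24% of other genes. In FMR1 KO the shares were 12.7% and 9.82%, and with low nuclease 25.4% and 12.8%. These differences were not tested. Members of the membrane and secretory lists were spread widely between pellet replicate 3 and the other pellets, as given above, and the part of this spread in the shares was not tested.

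Tubulins and beta actin did not pass the test. Of the tubulins, 0 of the 14 measured rose and 0 fell, where 7.67% of all genes rose and 1.75% fell, with a median of 0.13 (0.06 with 6). The beta tubulin Tubb5 had 6349, 5849 and 5628 CPM in the pellets and 5760.5 and 5447 CPM in fraction 5/6 (0.09 ± 0.28 SE, adjusted p = 0.868, 0.04 with 6), and Tubb3, the neuronal form, 3314, 3014 and 2853 CPM and 2875 and 2669 CPM (0.14 ± 0.22 SE, adjusted p = 0.709, 0.08 with 6). Beta actin Actb was at 4809.8, 5175 and 4109 CPM and 4346 and 4302 CPM (0.12 ± 0.27 SE, adjusted p = 0.799, 0.09 with 6). The levels of these 3 genes overlapped between the fractions. The actin list had a median of -0.30 (-0.13 with 6), 3 of the 38 measured rose and 1 fell, and Dbn1, the drebrin of dendritic spines, was its largest rise, at 501, 478 and 764 CPM against 149 and 122 CPM (2.1 ± 0.28 SE, adjusted p = 0.0147, 1.21 with 6). Of the microtubule-associated proteins, 9 of the 35 measured rose (25.7%) and 0 fell. Map1b, which stabilises microtubules in growing axons and is a classic FMRP target, had 10128, 8568 and 11221 CPM in the pellets and 1091 and 1334 CPM in fraction 5/6, with 9426 CPM in the omitted library. Its log2 fold change was 3.04 ± 0.35 (SE, adjusted p = 0.0115) with 5 libraries and 1.34 with 6. Map1a, its relative, rose too (3.38 ± 0.32 SE, adjusted p = 0.0081, 1.44 with 6), while Dpysl2, the collapsin response mediator, did not pass (0.90 ± 0.23 SE, adjusted p = 0.0747, 0.48 with 6). Camsap3, which caps microtubule minus ends, was at 865, 836 and 4438 CPM against 4443 and 30242 CPM and did not pass (-3.08 ± 1.16 SE, adjusted p = 0.166, -2.5 with 6).

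The synaptic lists had rises and no falls. As 1.75% of all genes fell, lists of this size would hold few falls, so their absence says little. Of the vesicle and active zone proteins, 9 of the 42 measured rose and 0 fell (21.4% against 7.67% of all genes), with a median of 0.44 (0.23 with 6). Pclo and Bsn, the giant scaffolds of the active zone, had 253, 135 and 269 CPM and 118, 73.5 and 111 CPM in the pellets. In fraction 5/6 they had 24.9 and 23.6 CPM and 20.8 and 16.1 CPM, and they rose by 3.17 ± 0.36 (1.24 with 6) and 2.45 ± 0.27 (1.03 with 6). Clathrin heavy chain Cltc (0.98 ± 0.24 SE, adjusted p = 0.0684, 0.60 with 6) did not pass, nor did the adaptor Ap2a1, at 7926, 1978 and 3304 CPM against 779.6 and 4919 CPM. Of the postsynaptic scaffolds, 5 of the 31 measured rose and 0 fell (16.1%), with a median of 0.22 (0.11 with 6), which was -0.18 relative to genes of the same length. Shank3, the master scaffold of the synapse, had 38.3, 41.4 and 45.1 CPM against 22.0 and 18.8 CPM and rose by 1.03 ± 0.13 (SE, adjusted p = 0.0135, 0.61 with 6). The kinase subunits Camk2b (0.59 ± 0.17 SE, adjusted p = 0.104, 0.46 with 6) and Camk2g and the scaffold Dlg2 did not pass. Camk2g spread over 1279, 1245 and 160.4 CPM in the pellets, and Dlg2 over 196 and 2798 CPM in fraction 5/6.

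Lists of mostly short mRNAs had medians below 0. Of the cytosolic ribosomal proteins, 2 of the 80 measured rose and 4 fell (2.50% and 5%, against 7.67% and 1.75% of all genes), with 8 of 80 above 0 and a median of -0.44 (-0.23 with 6) beside -0.01 for all genes. The omitted library went with the pellets, with a median member at -0.62 relative to fraction 5/6 beside -0.40, -0.11 and -0.74 in the pellets. Rps6, a small-subunit protein, had 21.3, 20.0 and 18.7 CPM in the pellets and 35.5 and 37.8 CPM in fraction 5/6, with 17.5 CPM in the omitted library, and fell (-0.87 ± 0.10 SE, adjusted p = 0.011, -0.60 with 6). Rpl32 (-1.01 ± 0.20, -0.72 with 6), Rpl15 (-0.76 ± 0.16, -0.49 with 6) and Rpl5 (-0.57 ± 0.11, -0.39 with 6) fell as well, while Rpl13 (1.14 ± 0.19, 0.19 with 6) rose, so the family did not move as one. Rpl4 and Rpl8, of the large subunit, did not pass (-0.35 ± 0.16 SE, adjusted p = 0.242, -0.21 with 6 and -0.31 ± 0.24 SE, adjusted p = 0.449, -0.21 with 6). Reads of ribosomal protein genes and their processed pseudogenes can be hard to assign, and how the counting treated them is not given in the sources used here.

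Mitochondrial ribosomal proteins had a median of -0.24 (-0.13 with 6), and 0 of the 74 measured rose and 0 fell, where 7.67% of all genes rose and 1.75% fell. The nuclear-encoded respiratory subunits had a median of -0.25 (-0.13 with 6), and 1 of the 75 measured rose and 2 fell. The ATP synthase subunit Atp5b was at 1291, 1268 and 1264 CPM and 1336 and 1309.9 CPM (-0.05 ± 0.16 SE, adjusted p = 0.863, -0.05 with 6), and Ndufs1 of complex I rose (0.89 ± 0.13 SE, adjusted p = 0.0188, 0.53 with 6), while Ndufb6 of complex I and Atp5h of ATP synthase fell (-0.63 ± 0.11, -0.42 with 6 and -0.70 ± 0.13, -0.47 with 6). The length-centred medians of these 2 lists were -0.02 and -0.02. Mitochondrially encoded mRNAs, made on other ribosomes, were barely seen: their 12 genes summed to 1.05, 2.38 and 1.82 CPM in the pellets and 1.62 and 1.81 CPM in fraction 5/6.

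Translation factors went both ways. Of the initiation factors, 5 of the 53 measured rose and 2 fell (9.43% and 3.77%, against 7.67% and 1.75% of all genes), with a median of -0.21 (-0.08 with 6). Eif3a, the largest eIF3 subunit, had 532, 437 and 607 CPM in the pellets and 96.2 and 129 CPM in fraction 5/6 (2.23 ± 0.22 SE, adjusted p = 0.00912, 0.99 with 6), and Eif4g1, the scaffold of cap binding, rose by 1.56 ± 0.20 (SE, adjusted p = 0.0136, 0.62 with 6), whereas Eif3c did not pass, at 467, 419 and 455 CPM and 399 and 446 CPM (0.08 ± 0.13 SE, adjusted p = 0.713, 0.05 with 6). The initiation factors that fell were Eif1ax (-0.57 ± 0.11, -0.37 with 6) and Eif4b (-0.62 ± 0.12, -0.47 with 6). Of the elongation factors, 1 of the 10 measured rose and 0 fell. Eef2, the translocase, had 1662, 1607 and 1698 CPM against 654 and 719 CPM, with 1611 CPM in the omitted library, and rose by 1.27 ± 0.17 (SE, adjusted p = 0.0145, 0.74 with 6). Eef1a1 (-0.45 ± 0.19 SE, adjusted p = 0.201, -0.29 with 6) and Eef1a2 (-0.14 ± 0.14 SE, adjusted p = 0.557, -0.09 with 6), which deliver tRNA, did not pass. Of the tRNA synthetases, 3 of the 19 measured rose and 0 fell, among them Eprs, which charges tRNA with glutamate and proline (1.62 ± 0.20, 0.77 with 6).

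Splicing factors and hnRNPs had the lowest median after ribosomal proteins among lists with at least 10 members tested (-0.39, -0.28 with 6), which was -0.35 relative to genes of the same length. Of these, 5 of the 78 measured rose and 5 fell (6.41% each way, against 7.67% and 1.75% of all genes). The hnRNPs that fell were Hnrnpa2b1, Hnrnpa1, Hnrnpa3 and Hnrnpc, together with Srsf11. Hnrnpa1 had 192, 191 and 154 CPM in the pellets and 337 and 396 CPM in fraction 5/6 (-1.03 ± 0.15 SE, adjusted p = 0.0198, -0.76 with 6), and Hnrnpa3 92.5, 99.5 and 87.0 CPM and 186 and 268 CPM (-1.28 ± 0.18 SE, adjusted p = 0.0157, -1.0 with 6). The 5 that rose were led by Prpf8 and Snrnp200, the giant core proteins of the spliceosome, at 3.24 ± 0.23 (SE, adjusted p = 0.00639, 1.36 with 6) and 2.21 ± 0.19 (SE, adjusted p = 0.00781, 1.01 with 6). Hnrnpu, the member with the highest CPM, did not pass (0.31 ± 0.18 SE, adjusted p = 0.324, 0.15 with 6), and Snrpa spread widely, at 1212, 705 and 25.0 CPM and 1805 and 36.1 CPM. In FMR1 KO 3 of 78 fell, and with low nuclease 36 of 78, where 8.63% of all genes did. Proteasome subunits had a median of -0.20 (-0.10 with 6), 1 of the 35 measured rose and 2 fell, with Psmd1 rising (1.14 ± 0.16, 0.62 with 6) and Psmd6 and Psmd12 falling (-0.52 ± 0.10, -0.34 with 6 and -0.49 ± 0.10, -0.32 with 6). Glycolytic enzymes (0.03, 0.02 with 6, 1 of the 15 measured rose and 0 fell), HSP70, HSP90 and CCT chaperones (0.18, 0.17 with 6, 2 of the 23 measured rose and 1 fell), immediate early genes (0.12, 0.10 with 6, 0 of the 18 measured rose and 0 fell), cell cycle genes (0.07, 0.05 with 6, 1 of the 36 measured rose and 0 fell) and neurodevelopmental transcription factors (-0.09, -0.07 with 6, 0 of the 42 measured rose and 0 fell) had medians within 0.2 of 0. Replication-dependent histones, whose mRNAs have no poly(A) tail, summed to under 4 CPM in each library.

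The RNA-binding proteins that mark neuronal granules went both ways: of this list, 2 of the 42 measured rose and 3 fell (4.76% and 7.14%, against 7.67% and 1.75% of all genes), with a median of -0.11 (-0.05 with 6). With 6 libraries 0 passed. The study blotted several of these proteins, and the footprints on their mRNAs are a separate measurement from the protein. Hnrnpa2b1, which binds transported mRNAs, had 773, 781 and 707 CPM in the pellets and 1376 and 1734 CPM in fraction 5/6, with 780.4 CPM in the omitted library, and fell (-1.04 ± 0.18 SE, adjusted p = 0.0287, -0.78 with 6). Upf1, the helicase of nonsense-mediated decay, stood at 159, 147 and 152 CPM against 89.3 and 88.9 CPM, with 172 CPM in the omitted library, and rose by 0.78 ± 0.09 (SE, adjusted p = 0.0125, 0.39 with 6). The double-stranded RNA binding protein Stau2 (-0.16 ± 0.10 SE, adjusted p = 0.349, -0.06 with 6), the single-strand binder Pura (-0.09 ± 0.12 SE, adjusted p = 0.663, -0.03 with 6) and the stress granule proteins G3bp1 (-0.13 ± 0.08 SE, adjusted p = 0.354, -0.17 with 6) and Tia1 (-0.36 ± 0.15 SE, adjusted p = 0.201, -0.26 with 6) did not pass. Their pellet and fraction 5/6 levels were near each other, at 48.2, 48.6 and 50.4 CPM and 52.9 and 54.9 CPM for G3bp1. Igf2bp1, which encodes ZBP1, was at 809, 0.968 and 1.00 CPM in the pellets, so that 1 library made its fold change (7.34 ± 3.73 SE, adjusted p = 0.268, 3.99 with 6). Rpn1, a subunit of the oligosaccharyl transferase, was at 15.0, 13.4 and 31.5 CPM against 7.0 and 7.52 CPM (1.46 ± 0.44 SE, adjusted p = 0.108, 0.13 with 6). Caprin1 did not pass (0.01 ± 0.14 SE, adjusted p = 0.972), Dhx9, an RNA helicase, rose (1.09 ± 0.21 SE, adjusted p = 0.0406, 0.59 with 6), and Tardbp (-0.68 ± 0.12, -0.54 with 6) and Ybx1 (-0.81 ± 0.13, -0.60 with 6) fell. Fmr1 itself, without the omitted library, was at 69.0, 61.1 and 70.1 CPM and 84.4 and 90.9 CPM (-0.39 ± 0.10 SE, adjusted p = 0.0814, 0.17 with 6), lower in every pellet than in both other libraries but not past the threshold.

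Lists that other studies made from other samples had medians above 0. Of 184 mRNAs that kept ribosomes in neurons after run-off (Shah), 42 of the 184 measured rose and 0 fell, with 165 above 0, a median of 0.98 and a length-centred median of 0.71. FMRP targets of Maurin (100 of the 262 measured rose and 0 fell) and of Darnell (228 of the 747 measured rose and 0 fell) had medians of 0.75 and 0.52, and length-centred medians of 0.20 and 0.14. The shares called higher were 22.8%, 38.2% and 30.5%, against 7.67% of all genes, and the 3 lists share members, Map1b among them. With all 6 libraries the medians were 0.61, 0.50 and 0.33, with 0 called. Fasn, the fatty acid synthase in the Shah list, rose by 2.57 ± 0.22 (SE, adjusted p = 0.00781, 1.09 with 6), while Tubb5, Actb and Hsp90ab1 (a cytosolic chaperone, 0.35 ± 0.23 SE, adjusted p = 0.368, 0.25 with 6), among their members with the highest CPM, did not pass. Arhgap21, a GTPase-activating protein in the Maurin and Darnell lists, was at 24103, 62.9 and 148 CPM in the pellets and 3451 and 8857 CPM in fraction 5/6 (0.40 ± 2.36 SE, adjusted p = 0.932, 0.97 with 6).

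A handful of genes were nearly confined to one fraction, and in some of them the omitted library kept its labelled side. Sall4, Zc3h3 and Hmx2, the genes called with 6 libraries, had 0 deposited coding peaks in each of the 6 libraries. Kif5a and Kif1a had 0 as well. Whether the counts of Sall4, Zc3h3 and Hmx2 come from footprints on coding sequence was not tested. For them too, a difference between fractions and one between library pools cannot be told apart. Sall4, a stem cell transcription factor (ENSMUSG00000027547, chr2:168748332-168767943, minus strand), had 364547, 205262 and 122703 counts in the pellets and 7, 5 and 8 counts in the 3 libraries of fraction 5/6. That is 17422, 15283 and 11167 CPM against at most 0.752 CPM, with no overlap, and the log2 fold change was 14.67 ± 0.79 (SE, adjusted p = 0.0139) with 6 libraries and 14.74 ± 0.85 with 5. In FMR1 KO it had too few counts to be tested, and with low nuclease it reached 36.9 CPM in 1 pellet library and at most 0.461 CPM in the other 5 (5.27, adjusted p = 0.106). Zc3h3, a factor of mRNA export, had 22.7, 19.2 and 29.7 CPM in the pellets and 1.42 and 1.96 CPM in fraction 5/6, with 1.78 CPM in the omitted library (3.81 ± 0.24 SE, adjusted p = 0.0202 with 6 libraries). With low nuclease it differed by 0.17 (adjusted p = 0.899). Mllt6 and B230217C12Rik, which lie near each other on chromosome 11 (97663414 to 97685463 and 97840780 to 97844099), had near-equal values, at 28.7, 50.3 and 26 CPM and 27.3, 48.8 and 23.1 CPM in the pellets. In fraction 5/6 they were at 4.72 and 5.42 CPM and 3.10 and 0.752 CPM, and they rose by 2.8 ± 0.37 (2.55 with 6) and 3.94 ± 0.66 (3.45 with 6). Across the 6 libraries Mllt6 exceeded B230217C12Rik by 1.34 to 4.66 CPM, so that 1 signal counted for both genes and 2 separate rises cannot be told apart. Exph5, an effector of vesicle transport, was at 14.1, 6.48 and 10.7 CPM against 0.558 and 0.602 CPM (4.17 ± 0.48 SE, adjusted p = 0.0113, 3.81 with 6), and neither FMR1 KO (1.07) nor low nuclease (0.37) passed.

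On the side of fraction 5/6, Hmx2, a homeobox gene of the inner ear and hypothalamus (ENSMUSG00000050100, chr7:131548773-131558014, plus strand), had 10, 10 and 1 counts in the pellets and 10077, 4830 and 4670 counts in fraction 5/6, the omitted library included. Its log2 fold change was -10.18 ± 0.80 (SE, adjusted p = 0.0494) with 6 libraries. Bub3, the spindle checkpoint gene that lies downstream of Hmx2 on the same strand of chromosome 7 (131560222 to 131571895), stood at 79.6, 79.9 and 69.1 CPM in the pellets and 579 and 793 CPM in fraction 5/6, with 423 CPM in the omitted library. It fell with 5 libraries (-3.16 ± 0.18 SE, adjusted p = 0.00639) and differed by -2.97 (adjusted p = 0.112) with 6. The Bub3 level exceeded that of Hmx2 by 66.0 to 79.1 CPM in each of the 6 libraries, and by 66.7 to 77.9 CPM in the 6 FMR1 KO libraries. How the counting treated reads shared between neighbouring genes or mapped to several places is not given in the sources used here, so a fall of Bub3 and reads of Hmx2 counted for both genes cannot be told apart. In the FMR1 KO libraries Hmx2 was at 1555, 0.233 and 1402 CPM in the pellets and 844, 1755 and 0 CPM in fraction 5/6, so that it was high in 2 of 3 libraries of each fraction. With low nuclease Hmx2 stayed at 0.455 CPM or below throughout. Grrp1 (3.92, 2.90 and 2.18 CPM against 14.2 and 11.3 CPM) also kept the omitted library on the fraction 5/6 side, at 12.1 CPM.

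The other large falls rested on fraction 5/6 replicates 1 and 2 and were low in the omitted library, with A630001G21Rik (2.23 CPM), Cyp2c23 (3.34 CPM) and Bbox1 (2.16 CPM) still above all pellets there. Adamts14, a procollagen peptidase (ENSMUSG00000059901, chr10:61197112-61273438, minus strand), had 55.5 and 556 CPM there and 0.0910 to 0.372 CPM in the other 4 libraries (-10.64 ± 1.37 SE, adjusted p = 0.0138, not tested with 6). Its neighbour Tbata (61171954 to 61188841 on the same chromosome) had 56.8 and 556 CPM, close to the values of Adamts14 in both libraries, and 0.818 CPM in the omitted library (-7.73 ± 1.11 SE, adjusted p = 0.0179, -7.16 with 6). Tbata exceeded Adamts14 by 0.446 to 1.56 CPM in all 6 libraries, so these 2 of the 12 falls may be 1 signal, which was not tested. Jmjd4, a lysyl hydroxylase of translation termination, had 11.6, 11.3 and 10.9 CPM in the pellets, 211 and 3568 CPM in fraction 5/6 and 9.51 CPM in the omitted library (-7.37 ± 1.24 SE, adjusted p = 0.0278, -6.80 with 6). Ptar1, a prenyltransferase subunit, followed it, at 10.7, 12.1 and 12.8 CPM against 178 and 671 CPM and 10.7 CPM (-5.15 ± 0.59 SE, adjusted p = 0.0111, -4.60 with 6). The rest of the 12 largest falls were A630001G21Rik (-6.56 ± 0.29, -6.07 with 6), Arsg (-5.44 ± 0.97, -4.88 with 6), Cyp2c23 (-5.23 ± 1.09, -4.73 with 6), Cracr2a (-5.12 ± 0.36, -4.55 with 6), Bbox1 (-4.81 ± 0.98, -4.26 with 6), Itgb6 (-4.56 ± 0.75, -3.99 with 6) and P2rx4 (-4.49 ± 0.88, -3.93 with 6). Of the 12, Hmx2 included, none passed in FMR1 KO or with low nuclease where tested. In FMR1 KO 7 of the 9 that could be tested were above 0, the opposite direction, among them Tbata (7.33, adjusted p = 0.0703), Cracr2a (3.76, adjusted p = 0.0848) and Ptar1 (2.27, adjusted p = 0.22). With low nuclease 9 of 11 were below 0. Between 4 and 11 of the 12 falls kept the call when 1 of the 5 libraries or a replicate number was left out (4 without pellet 1 or pellet 3 and 5 without pellet 2), compared with 10 to 12 of the 12 rises.

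The genes that rose in WT were read in libraries that share no sample with them. In FMR1 KO with standard nuclease, 1016 of the 1023 that could be tested were above 0 (99.3%, against 50.8% of all genes) with a median of 1.01. Of these, 781 were called higher there, 76.3% of the WT calls and 58.2% of the 1342 FMR1 KO calls (10.1% of 13320 genes). In the WT low nuclease libraries 998 of 1024 were above 0 (97.5%, against 47.0%) with a median of 0.89, and 761 were called, 74.3% of the WT calls and 34.1% of 2232 (14.3% of 15563 genes). Fewer of the genes that fell were called again. In FMR1 KO 144 of 219 were below 0 and 12 were called (5.13% of the WT calls and 6.45% of 186, where 1.4% of genes fell). With low nuclease 187 of 221 were below 0 and 89 were called (38.0% and 6.63% of 1343, where 8.63% of genes fell). Over all genes, the WT fold changes from 5 libraries had a Spearman's rho of 0.55 with FMR1 KO across 13092 genes and of 0.60 with low nuclease across 13278. With all 6 libraries the values were 0.49 and 0.54. At an unadjusted p under 0.05 stood 30.2% of genes in FMR1 KO and 40.5% with low nuclease, and the pellets lay wholly above fraction 5/6 in 21.7% and 23.9% of genes and wholly below in 14.5% and 23.3%. The correlations are descriptions across genes, given without a p, and in all 3 sets the fold change went with coding length.

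**Figure D4:**
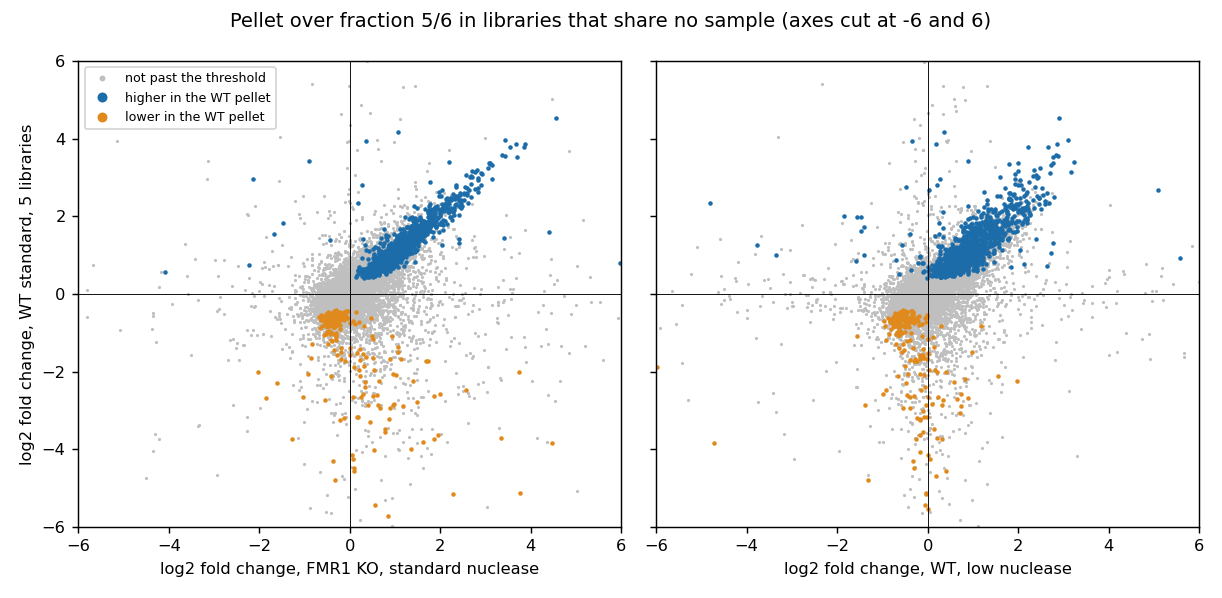
Log2 fold change of pellet over fraction 5/6 in WT with 5 libraries (y axis) against FMR1 KO with standard nuclease (left) and WT with low nuclease (right), with one point per gene and both axes cut at -6 and 6. Blue points, the genes that rose in WT, lie right of 0 in 99.3% and 97.5% of cases, while the genes that fell are spread on both sides in FMR1 KO.

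Where on the mRNA the ribosomes sat was read from the deposited peaks, stretches of a transcript with a local maximum of footprints, called by the authors in each library. The pellet libraries held 36435, 24583 and 21740 peaks and those of fraction 5/6 held 30153, 12432 and 23376, the last from the library labelled replicate 3. A peak of a pellet library had its middle within 6 nt of one in a fraction 5/6 library in 15.7% of cases on average with 6 libraries and in 14.6% without the omitted library. Within a fraction the matches were little more frequent: pellets matched each other in 13.8% to 23.8% of all peaks. Pellet 1 matched pellets 2 and 3 in 16.1% and 13.8%, and fraction 5/6 replicate 1 in 17.9%. Fraction 5/6 replicate 1 matched replicate 2 in 10.9%, and replicate 2 matched replicate 1 in 26.3%. Among the 2000 highest peaks per library, pellets matched each other in 34.1% to 41.8% and fraction 5/6 replicates 1 and 2 matched each other in 37.4%. The omitted library matched the pellets in 31.4% to 36.0% of its 2000 highest peaks, and fraction 5/6 replicates 1 and 2 in 29.8% and 20.4%. Fraction 5/6 replicate 1 matched the pellets in 31.3% to 33.3% and replicate 2 in 22.1% to 26.1%, so the omitted library was not apart from replicate 1 by this measure. Peak heights are not scaled between libraries, so they are compared within a library only.

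Peaks that recur in all 3 pellets are given here with their sequence, for Tubb2b, the beta tubulin of migrating neurons, and for 6 other genes. These are the 6 with the highest recurrent peaks whose run lies in 1 exon, among the mRNAs of blotted proteins, the genes with the largest changes or smallest p and the list members of 4800 nt and more, ranked by the lowest of the 3 pellet heights. Named genes outside that set had higher peaks, as Actb, whose highest peaks in the pellets were of 3434, 2002 and 1560. The peaks were chosen by their height in the pellets, so a missing match in fraction 5/6 is a description. Each run is 27 nt of the coding sequence around the middle of the peak, 5′ to 3′ on the strand of the mRNA, with the codon at the middle in capitals. The sequences are from GENCODE M21 transcripts on GRCm38 and each lies within 1 coding exon. Whether deposited positions count from 0 or 1 is not stated, so the codon may be off by 1 nt.
Tubb2b codon 203, chr13:34128188-34128214, minus strand: acctactgcatcGATaatgaggctctg
Tubb2b codon 387, chr13:34127636-34127662, minus strand: gagcagttcactGCTatgttccggcgc
Tubb2b codon 440, chr13:34127477-34127503, minus strand: ttcgaggaggaaGAGggcgaggatgag
Nbea codon 2063, chr3:55819356-55819382, minus strand: gattactgggagGATgatcttcgtcga
Usp9x codon 1984, chrX:13156600-13156626, plus strand: cagattgtcatgCCAtccgccattgaa
Kif1b codon 1251, chr4:149204218-149204244, minus strand: atgagcaagtacGACcttctggtttgg
Hnrnpa2b1 codon 284, chr6:51464441-51464467, minus strand: ggtgggggctacGGAggtggttatgac
G3bp1 codon 133, chr11:55491997-55492023, plus strand: gacatcttcaggTACcaagatgaggtc
Prrc2a codon 165, chr17:35161434-35161460, minus strand: ctactgtcgcgaTTCtctcgagaggaa

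The Tubb2b peak at codon 203 was present in all 6 libraries, with heights of 4268, 2436 and 2102 in the pellets and 4020, 1286 and 2345 in fraction 5/6. That at codon 440, in the acidic tail of the protein, was also in all 6, at 2065, 995 and 996 and at 3513, 1570 and 1487. At codon 387 the pellets had 3868, 2352 and 1568 and fraction 5/6 had 2359, no matching peak and 2682. Codon 203 was higher than codon 440 in 5 of the 6 libraries, fraction 5/6 replicate 1 and the omitted library included, and lower in fraction 5/6 replicate 2. G3bp1 codon 133 was in all 6 libraries as well (87, 42 and 38, and 87, 26 and 47), and the level of G3bp1 did not pass the test between the fractions. Kif1b codon 1251 (72, 36 and 40 in the pellets) and Usp9x codon 1984 (148, 81 and 85) had a matching peak in fraction 5/6 replicate 1, of 22 and 33, and in the omitted library, of 45 and 104, but not in replicate 2. Hnrnpa2b1 codon 284, in its glycine-rich region, had 145, 99 and 72 in the pellets and a match in the omitted library, and no matching peak in fraction 5/6 replicates 1 and 2, although the gene had a higher CPM there. Nbea codon 2063 had 115, 64 and 73 in the pellets, 69 in the omitted library and 8 in replicate 2. Prrc2a codon 165 had 91, 55 and 46 in the pellets, and 54 and 59 in fraction 5/6 replicate 1 and the omitted library. All 9 of these peaks had a match in the omitted library.

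On the longest mRNAs the pellet peaks lay further from the start. Of the peaks in coding sequences of 4800 nt and more, 11.1%, 12.3% and 11.4% fell in the first 1000 nt in the 3 pellets (of 3265, 1806 and 1951 peaks). In fraction 5/6 it was 22.0% and 27.5% (of 909 peaks on 84 mRNAs and 204 peaks on 30 mRNAs) and 11.8% in the omitted library (of 1950). Spread evenly, the peaks of these mRNAs would have had 14.5% to 17% there. The pellets lay below that share, fraction 5/6 replicates 1 and 2 above it, and the omitted library with the pellets. The difference of pellet and fraction 5/6 was -8.80 percentage points with 6 libraries and -13.1 with 5 (two-sided exact permutation test, p = 0.2 in both). In FMR1 KO the pellets had 11.4%, 12.2% and 11.8% and fraction 5/6 had 29.7%, 20.4% and 30.9% (difference -15.1, exact permutation p = 0.1, the smallest possible). This measure was chosen after the data had been seen, and the peaks of fraction 5/6 come from fewer mRNAs. In mRNAs from 2400 to under 4800 nt the shares were closer, 26.1% ± 0.231 (SD, n = 3) in the pellets and 31.1% ± 0.454 (SD, n = 2) in fraction 5/6 with 5 libraries (exact permutation p = 0.2). Here fraction 5/6 replicates 1 and 2 lay below the share of evenly spread peaks (30.7% against 32.0% and 31.4% against 33.4%), as did the 3 pellets. Dync1h1 had 14 coding peaks in fraction 5/6 replicate 1, 9 of them in its first 1000 nt. It had no deposited peak in the pellets despite its higher level there, so positions cannot be compared. Hectd4 had 10 in fraction 5/6 replicate 1, 7 in the first 1000 nt, and 3, 2 and 2 in the pellets with 0 in the first 1000 nt. Both examples rest on 1 library, as replicate 2 had 0 peaks in either gene. Herc2, Mycbp2, Herc1, Trrap, Mdn1 and Prkdc had 0 in fraction 5/6 replicates 1 and 2.

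**Figure D5:**
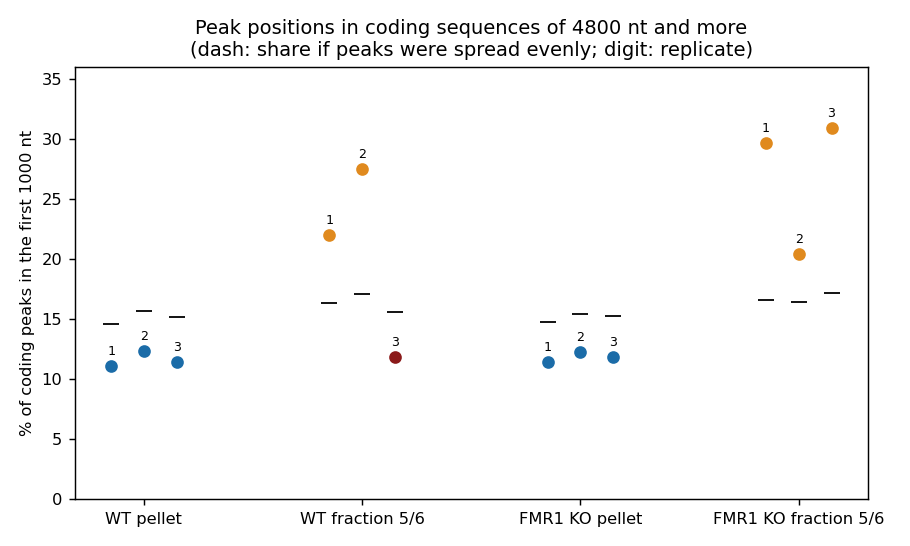
Percent of the peaks in coding sequences of 4800 nt and more that lie in the first 1000 nt, one point per library, with a dash for the share that evenly spread peaks would give. The 6 pellet libraries lie between 11.1% and 12.3%, with the dark red library labelled fraction 5/6 replicate 3 at 11.8%, and the other fraction 5/6 libraries between 20.4% and 30.9%.

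Markers of the cell types in brain were checked for the tissue label. Over all genes, 7.67% rose and 1.75% fell with 5 libraries. Neuron markers summed to 7369.9, 7208 and 6349.8 CPM in the pellets and 7542 and 7105 CPM in fraction 5/6, with 6865 CPM in the omitted library, and 0 of the 12 measured rose and 0 fell (median -0.07, -0.04 with 6). Astrocyte markers summed to 1347, 1576 and 1520.0 and 1385 and 1576 CPM, and 2 of the 10 measured rose and 0 fell (median 0.72, 0.44 with 6), among them the glutamate transporter Slc1a3 (1.6 ± 0.25, 0.67 with 6). Of the oligodendrocyte lineage markers, 2 of the 9 measured rose and 0 fell, the growth factor receptor Pdgfra (1.38 ± 0.24, 0.76 with 6) and the proteoglycan Cspg4 (2.77 ± 0.36, 0.70 with 6), with sums of 364, 419 and 430.1 and 409 and 459 CPM. The summed microglial level was 697, 696 and 859 CPM in the pellets and 361 and 1827 CPM in fraction 5/6, and of these markers 1 of the 8 measured rose and 0 fell (P2ry12, 1.68 ± 0.19, 1.16 with 6). Endothelial and erythroid markers were low, with sums of 7.60, 8.64 and 11.7 and 8.89, 18 and 8.10 CPM in the pellets and 9.54 and 11.4 and 8.98 and 9.03 CPM in fraction 5/6. Among them 0 of the 6 measured rose and 1 fell (Pecam1, -2.11 ± 0.35, -2.17 with 6) and 0 of the 5 measured rose and 0 fell. The part of cell composition in the gene results was not tested.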

How the data were processed

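Footprints from 3 WT pellet and 3 WT fraction 5/6 libraries of the standard nuclease treatment were analysed, with FMR1 KO and low nuclease libraries alongside. The authors trimmed reads with Cutadapt 2.10, removed rRNA and other noncoding RNA with Bowtie2 2.3.5, aligned with STAR 2.7.8a to GRCm38 (Ensembl 102), took out duplicates marked by Picard with SAMtools 1.19.2 and counted reads per gene with featureCounts 2.2.0. The barcodes in the linkers tell samples apart and not molecules, so removal of duplicates by position can lower the counts of heavily covered sites. The deposited table holds whole-number counts for 16614 genes, not normalised. The peaks deposited by the authors hold a height in footprint signal (coverage), called per library. Whether the stated minimum of 4 times the transcript average was applied is not given in the sources used here. The table has 2 columns that match no sample and were not used.

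Cdk8 and genes that are not protein-coding were left out (16561 were protein-coding). Genes were filtered by filterByExpr, normalised by TMM and tested with edgeR 4.0.16 (quasi-likelihood, Benjamini-Hochberg adjustment, threshold 0.05), once with 6 libraries and once with 5. Distances and correlations between libraries used a prior count of 2, list levels a pseudocount of 0.5 CPM. Fold changes were those of the edgeR fit with its default prior count. A second test used DESeq2 1.42.0. The test was tried on simulated counts with 200 changed genes. Values of single measures were compared by exact permutation tests. Peaks were matched when their middles were within 6 nt on the same transcript. Coding lengths and protein sequences were those of GENCODE M21.

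Named genes were Fmr1, Wdfy1, Tubb2b and the mRNAs of blotted proteins, the 12 largest rises and falls past the threshold with no overlap and at least 5 CPM on average in the fit of 5 libraries, the 5 smallest p in each direction with 6, and from each list the 3 members with the highest mean CPM. Some genes that this rule names are not reported here. Genes and lists were chosen with earlier results of these data known, and other list members were picked after their values were seen. Alternatives were library size scaling, DESeq2, other filters, a replicate block, a joint fit with the FMR1 KO standard nuclease libraries, the longest coding sequence, other peak windows and leaving out libraries.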

Additional observations from a re-analysis of the deposited data

Results flagged for a closer look

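B230217C12Rik was higher in every WT pellet than in every library of fraction 5/6 with standard nuclease, and with low nuclease every pellet library was below every library of fraction 5/6 (log2 fold change -0.36). The difference between the treatments was not tested.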

How the results depend on the processing

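With all 6 libraries, the 2 genes higher in the pellet became 10 with DESeq2, 0 with the replicate block, 1 in a joint fit with the FMR1 KO libraries and 2232 in the low nuclease libraries, and 0 to 1024 when a library or replicate number was left out (1024 without fraction 5/6 replicate 3, 838 without replicate 3 of both fractions). The 1 lower gene became 5 with library size scaling, 80 with DESeq2, 0 at a mean of at least 10 CPM, 0 with the block, 0 in the joint fit and 1343 with low nuclease, and 0 to 234 in the leave-outs (106 without replicate 3 of both fractions, 10 without fraction 5/6 replicate 2). With 5 libraries, the 1024 higher genes became 548 with library size scaling, 1731 with DESeq2 and 0 with the block, and 95 to 838 in the leave-outs (256, 690 and 838 without pellet 1, 2 and 3, 311 and 411 without fraction 5/6 replicate 1 and 2, 95 and 122 without replicate number 1 and 2). The 234 lower genes became 990 with DESeq2, 405 at a mean of at least 10 CPM, 0 with the block and 437 in the joint fit, and 25 to 233 in the leave-outs (25, 75 and 106 without pellet 1, 2 and 3, 155 without fraction 5/6 replicate 2, 91 without replicate number 2). The cause of these shifts was not tested, beyond the smaller number of samples in the leave-outs. At an unadjusted p under 0.05 the replicate block gave 1797 genes with 6 libraries and 2686 with 5. Samples of the same number correlated at 0.098, 0.007 and 0.250 in their deviations from the group means, and not every sample correlated best with its own number, so the numbers were not taken as pairs.

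The difference in median fold change between the longest and the shortest coding sequences kept its direction throughout, at 0.83 with 6 libraries (0.49 to 1.51 in the leave-outs, 0.81 with the longest coding sequence) and 1.51 with 5 (1.22 to 1.79, 1.43). The mean share of matched pellet peaks of 15.7% became 9.48% within 3 nt, 25.9% within 12 nt and 30.2% among the 2000 highest peaks. The difference in the share of early peaks ranged from -13.1 to -5.29 percentage points in the leave-outs, and restricted to the 2000 highest peaks it gave no value because fraction 5/6 held too few. Of the genes chosen by the naming rule and the lists, those that reversed with a call in either setting, or for a list beyond its spread, were Fmr1 (-0.56), Ap2a1 (1.20) and the median of immediate early genes (-0.10) with low nuclease, set against the fit of 6 libraries, and Arhgap21 in the fit of 5 (0.40), at -6.38 without replicate 1 and 1.82 without replicate 2. Of genes named outside the naming rule, Fbn1 went from 3.43 with 5 libraries to -2.59 with 6. For 144 of the named genes with 5 libraries, 1895 values kept direction and side of the threshold, 189 lost the call, 57 gained it and 1 reversed. Fraction 5/6 rests on 2 libraries in the fit of 5, and leaving out either assumes that the other varies like the pellets.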
